A study of Rattus norvegicus with 24 samples.

Results

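The 10 genes examined here are protein-coding genes of the mitochondrial genome, listed by Ensembl identifier among the 32883 genes of the count table. They were listed by name without a cut on any measured value, but with earlier results of these data known. They comprise 3 subunits of complex IV (Mt-co1, Mt-co2, Mt-co3), 5 of complex I (Mt-nd1, Mt-nd2, Mt-nd3, Mt-nd4, Mt-nd5), Mt-cyb of complex III and Mt-atp6 of complex V. The mitochondrial counts and share given below are those of these 10 genes only. The libraries came from polyA RNA of tissue blocks of the rostral posterior hypothalamic (rPH) region of 24 adult male Sprague-Dawley rats from Envigo, with 1 rat per library and 6 rats per group. All rats, controls included, were handled and placed in sound-attenuating chambers on 7 consecutive days, gave a blood sample after the last session, and were euthanized 24 h later on the same morning. Rats of the C group heard only background fan noise. The AS, RS3 and RS7 groups received 1, 3 and 7 daily loud noise exposures, with the last exposure on the same day in each group. The study left out 1 library per group for low read number or for adapter sequence and base composition, and the values below mark these 4 rats (RS7 rat 1, RS3 rat 8, AS rat 18 and C rat 20) wherever they appear.

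Mitochondrial DNA is transcribed from long precursor RNAs that are cut into separate messages, most of which receive a short polyA tail inside the organelle and can therefore enter polyA libraries. Their products are core subunits of the respiratory chain. Complex I takes electrons from NADH, complex III passes them to cytochrome c, complex IV hands them to oxygen, and complex V uses the resulting proton gradient to make ATP. Most subunits of these complexes are encoded in the nucleus, and brain tissue depends on the chain for the energy of ion pumping and synaptic transmission. Because a messenger RNA of this origin can take up a large part of a library, its share of the counts also affects what is left for all other genes.

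In the 20 retained rats, 5 per group, the number of reads counted on genes lay between 8087697 and 16947298, and the lowest count of any member in any of the 24 rats was 13471, for which counting error alone is 0.862%. Ranked by counts, which are not corrected for gene length, members filled the 9 highest places, and Mt-nd3 took place 30. Markers of neurons, astrocytes, endothelium, hypothalamus and dorsal thalamus with an identifier (8 of 8, 3 of 3, 3 of 3, 8 of 8 and 4 of 4) were counted in every retained rat. Their identifiers come from the study's lists of genes that differed between groups of these rats, so the markers are not a neutral choice. The hypothalamic list holds genes of the hypothalamus in general and none that marks the rPH region, and levels of single genes on it varied widely, with Avp and Oxt each down to 0.090 CPM (counts scaled to a common total, here the counts outside the 10 members) in the lowest retained rat.

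The share of a library's counts that fell on the 10 members was 13.6% in C rat 19, 19.5% in rat 21, 19.8% in rat 22, 13.0% in rat 23 and 13.9% in rat 24. In the AS group it was 12.1% in rat 13, 11.8% in rat 14, 14.2% in rat 15, 12.9% in rat 16 and 13.2% in rat 17. RS3 rats 7, 9, 10, 11 and 12 had 14.3%, 13.5%, 11.9%, 12.4% and 12.1%. C rats 21 and 22 stood apart from the other C rats, and the AS and RS3 groups covered nearly the same narrow range. In the RS7 group the share was 12.6% in rat 2, 13.4% in rat 3, 18.2% in rat 4, 13.4% in rat 5 and 13.1% in rat 6. The 4 libraries that the study left out held more than any retained library, with 33.1% in RS7 rat 1, 24.3% in RS3 rat 8, 45.3% in AS rat 18 and 24.5% in C rat 20. Thus 7 of 24 libraries lay above 18%, and the other 17 lay between 11.8% and 14.3%.

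**Figure D1:**
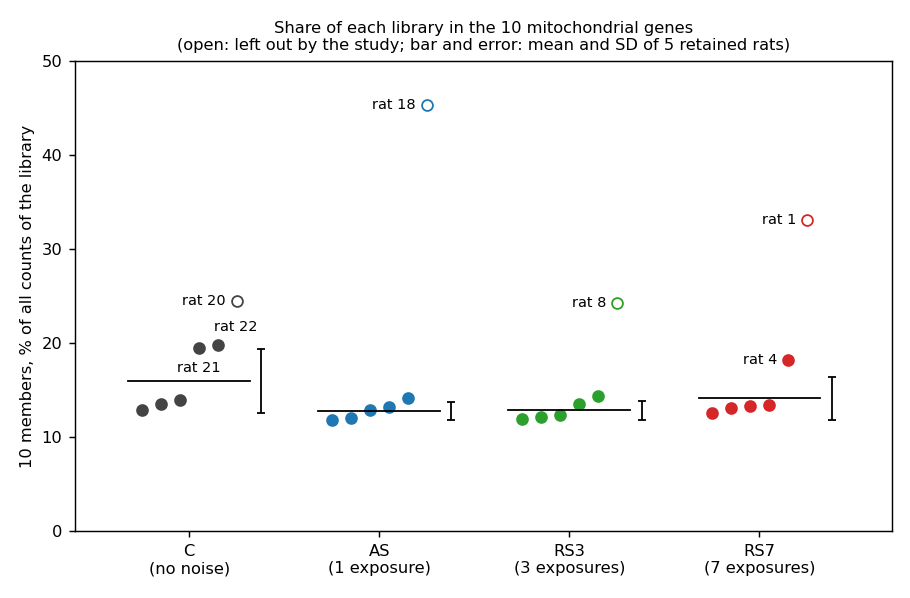
Share of all counts of a library that fell on the 10 mitochondrial genes (vertical axis, percent) in each of 24 rats, by group, with open symbols for the 4 rats left out by the study and the mean and SD of the 5 retained rats beside each group. C rats 21 and 22 (19.5% and 19.8%) and RS7 rat 4 (18.2%) lie above the 11.8% to 14.3% of the other 17 retained rats, and AS rat 18 reaches 45.3%.

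Averaged over the 5 retained rats, the summed share was 15.9% ± 3.39 (SD) for C, 12.8% ± 0.937 for AS, 12.9% ± 1.04 for RS3 and 14.1% ± 2.32 for RS7. The ranges of all 4 groups overlapped. Expressed against the counts of all other genes, the members received 19.1 ± 4.87 counts per 100 other counts for C, 14.7 ± 1.24 for AS, 14.8 ± 1.38 for RS3 and 16.5 ± 3.26 for RS7. The C and RS7 groups, which hold the 3 retained libraries that stood apart, had both the higher means and the wider spread. In a tissue block, fewer cells or mitochondria and less of this RNA per cell cannot be told apart.

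Among the complex IV subunits, Mt-co1 (ENSRNOG00000034234) encodes the catalytic core of cytochrome c oxidase. Its share of the library was 3.83%, 4.79%, 4.84%, 3.63% and 3.79% in C rats 19, 21, 22, 23 and 24, and 3.42%, 3.33%, 3.86%, 3.59% and 3.60% in AS rats 13, 14, 15, 16 and 17. It was 4.02%, 3.86%, 3.39%, 3.53% and 3.50% in RS3 rats 7, 9, 10, 11 and 12, and 3.58%, 3.63%, 4.53%, 3.62% and 3.62% in RS7 rats 2, 3, 4, 5 and 6. C rats 21 and 22 and RS7 rat 4 were again the highest of the retained rats, and all groups overlapped. Mt-co1 was the only member whose 4 highest values were not those of the 4 left-out rats, in which it took 5.76% (RS7 rat 1), 5.22% (RS3 rat 8), 4.52% (AS rat 18) and 5.41% (C rat 20). Mt-co2 (ENSRNOG00000030371), which carries the copper site that accepts electrons from cytochrome c, had a share of 1.64% ± 0.343 for C, 1.30% ± 0.103 for AS, 1.26% ± 0.103 for RS3 and 1.43% ± 0.266 for RS7. Mt-co3 (ENSRNOG00000030700), the remaining mitochondrially encoded subunit of this complex, had 1.61% ± 0.238, 1.38% ± 0.107, 1.35% ± 0.102 and 1.45% ± 0.175 in the same order.

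Mt-cyb (ENSRNOG00000031766) encodes cytochrome b, which carries the quinone-binding sites of complex III. It took 1.49% ± 0.283 of the library for C, 1.24% ± 0.0683 for AS, 1.23% ± 0.0855 for RS3 and 1.38% ± 0.222 for RS7. Mt-atp6 (ENSRNOG00000031979) encodes the subunit a of complex V, which forms part of the proton channel. Its shares in C rats 19, 21, 22, 23 and 24 were 1.57%, 2.42%, 2.46%, 1.46% and 1.62%, and those in AS rats 13, 14, 15, 16 and 17 were 1.39%, 1.38%, 1.61%, 1.50% and 1.46%. RS3 rats 7, 9, 10, 11 and 12 had 1.69%, 1.59%, 1.38%, 1.43% and 1.41%, and RS7 rats 2, 3, 4, 5 and 6 had 1.46%, 1.59%, 2.28%, 1.55% and 1.51%. The same 3 retained rats exceeded all others, and the groups overlapped. In the left-out rats Mt-atp6 took 5.49% (RS7 rat 1), 3.40% (RS3 rat 8), 9.28% (AS rat 18) and 3.32% (C rat 20).

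The complex I subunits are all parts of its membrane arm, where electron transfer is coupled to proton pumping. Mt-nd2 (ENSRNOG00000031033) had shares of 1.20%, 2.01%, 2.09%, 1.17% and 1.27% in C rats 19, 21, 22, 23 and 24, and of 1.04%, 1.02%, 1.38%, 1.19% and 1.23% in AS rats 13, 14, 15, 16 and 17. In RS3 rats 7, 9, 10, 11 and 12 it had 1.28%, 1.21%, 1.03%, 1.14% and 1.06%, and in RS7 rats 2, 3, 4, 5 and 6 it had 1.13%, 1.22%, 1.83%, 1.22% and 1.18%. C rats 21 and 22 and RS7 rat 4 were the highest here too. The left-out rats had 4.38% (RS7 rat 1), 2.79% (RS3 rat 8), 8.29% (AS rat 18) and 2.78% (C rat 20). Mt-nd1 (ENSRNOG00000030644), at the joint of the membrane and peripheral arms, had 1.39% ± 0.412 for C, 1.03% ± 0.0811 for AS, 1.04% ± 0.0852 for RS3 and 1.20% ± 0.268 for RS7. Mt-nd4 (ENSRNOG00000029707) and Mt-nd5 (ENSRNOG00000029971), which like Mt-nd2 resemble ion antiporters, ranged over the retained rats from 0.649% to 1.23% and from 0.750% to 1.43%. Mt-nd3 (ENSRNOG00000033615), the least counted member, ranged from 0.119% to 0.192%. For each of the 10 members the 3 highest retained values were those of C rats 21 and 22 and RS7 rat 4.

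**Figure D2:**
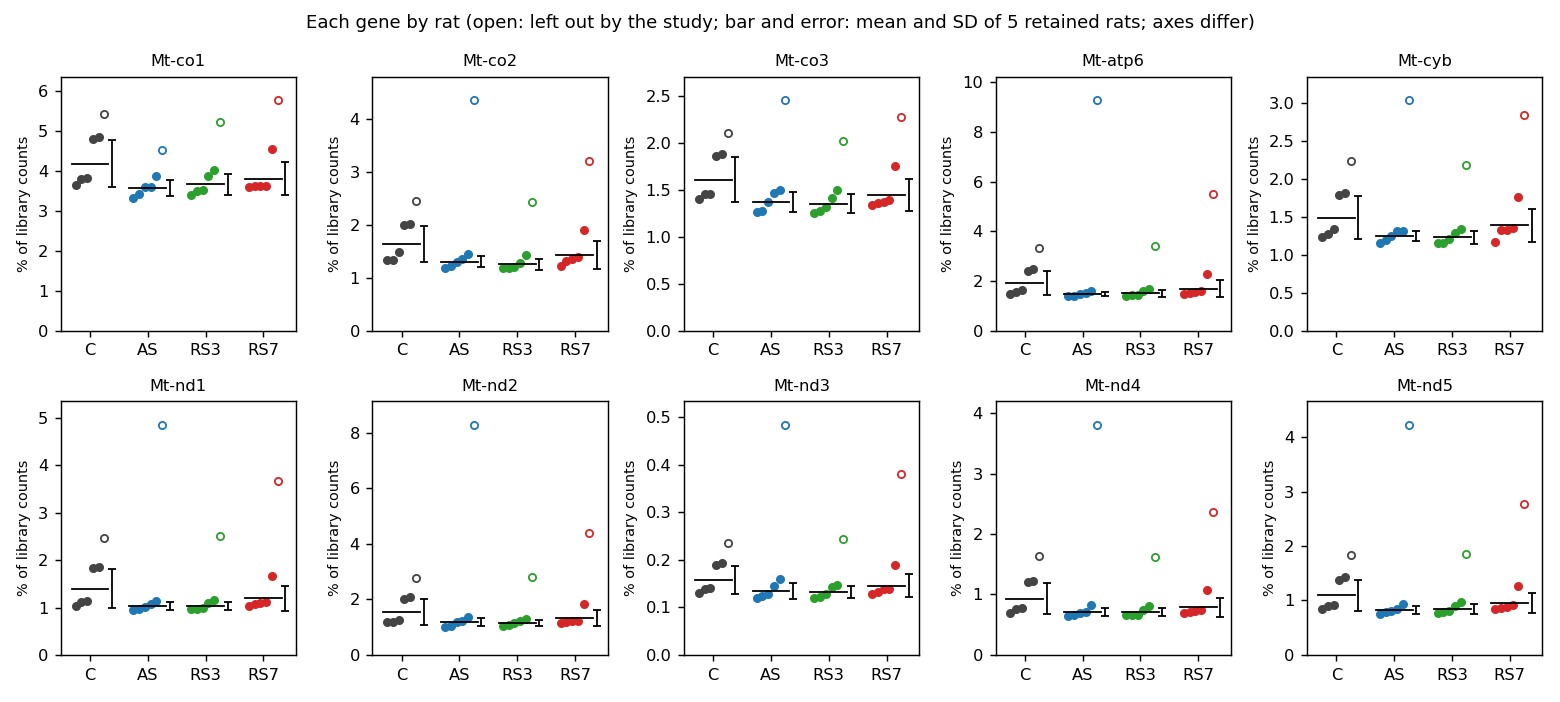
Share of library counts (vertical axis, percent, scaled separately per gene from 0) of each of the 10 genes in 24 rats by group, with open symbols for the left-out rats and the mean and SD of 5 retained rats. In every panel the 3 highest filled points are C rats 21 and 22 and RS7 rat 4, and the groups overlap.

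In the 7 libraries above 18%, the 10 members did not exceed their usual share by the same factor. Relative to the median of the 20 retained rats, the 10 members together were 1.84-fold in C rat 20, 3.41-fold in AS rat 18, 1.83-fold in RS3 rat 8 and 2.50-fold in RS7 rat 1, and 1.47-fold, 1.49-fold and 1.37-fold in C rat 21, C rat 22 and RS7 rat 4. Mt-co1 and Mt-co3 showed the smallest ratios to the median in 7 of 7 of these libraries, and Mt-nd2 showed the largest in 5 of 7, with Mt-nd1 the largest in C rat 21 and RS7 rat 4. AS rat 18 had the widest gap. There Mt-co1 was 1.25-fold, Mt-co3 1.75-fold and Mt-cyb 2.34-fold the median, against 4.48-fold for Mt-nd1, 5.28-fold for Mt-nd4, 6.05-fold for Mt-atp6 and 6.87-fold for Mt-nd2, so that the largest ratio was 5.51 times the smallest. The same quotient was 2.29 in RS7 rat 1, 1.61 in RS3 rat 8 and 1.55 in C rat 20, and 1.31, 1.28 and 1.23 in C rat 22, C rat 21 and RS7 rat 4. These ratios describe libraries chosen by their share and were not tested.

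**Figure D3:**
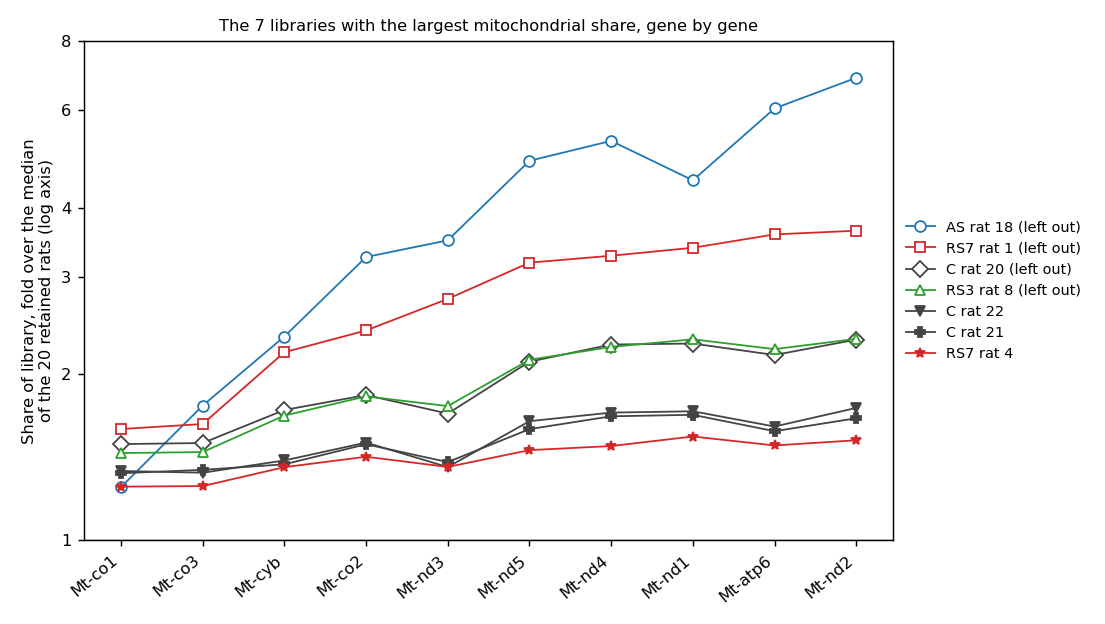
Share of each of the 10 genes in the 7 libraries with the largest mitochondrial share, as a fold over the median of the 20 retained rats (vertical axis, log scale), with open symbols for left-out rats. Mt-co1 and Mt-co3 on the left give the smallest folds in each library, and AS rat 18 runs from 1.25-fold for Mt-co1 to 6.87-fold for Mt-nd2.

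The make-up of the mitochondrial counts therefore shifted with their total. In the 17 other retained rats Mt-co1 made up 27.0% to 28.8% of the counts of the 10 members, against 24.6%, 24.5% and 24.8% in C rat 21, C rat 22 and RS7 rat 4. In the left-out rats it made up 22.1% (C rat 20), 21.5% (RS3 rat 8), 17.4% (RS7 rat 1) and 9.98% (AS rat 18). Mt-atp6 went the other way. It made up 11.1% to 11.9% in the 17 rats, 12.4%, 12.5% and 12.5% in the 3 retained rats, and 13.6%, 14.0%, 16.6% and 20.5% in C rat 20, RS3 rat 8, RS7 rat 1 and AS rat 18. Mt-nd2 made up 8.57% to 9.75% in the 17 rats, 10.3%, 10.6% and 10.0% in the 3 retained rats, and 11.4%, 11.5%, 13.2% and 18.3% in the left-out rats in that order. Mt-co2, by contrast, made up between 9.40% and 10.7% of the mitochondrial counts in all 24 rats, and Mt-nd3 between 0.953% and 1.15%.

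**Figure D4:**
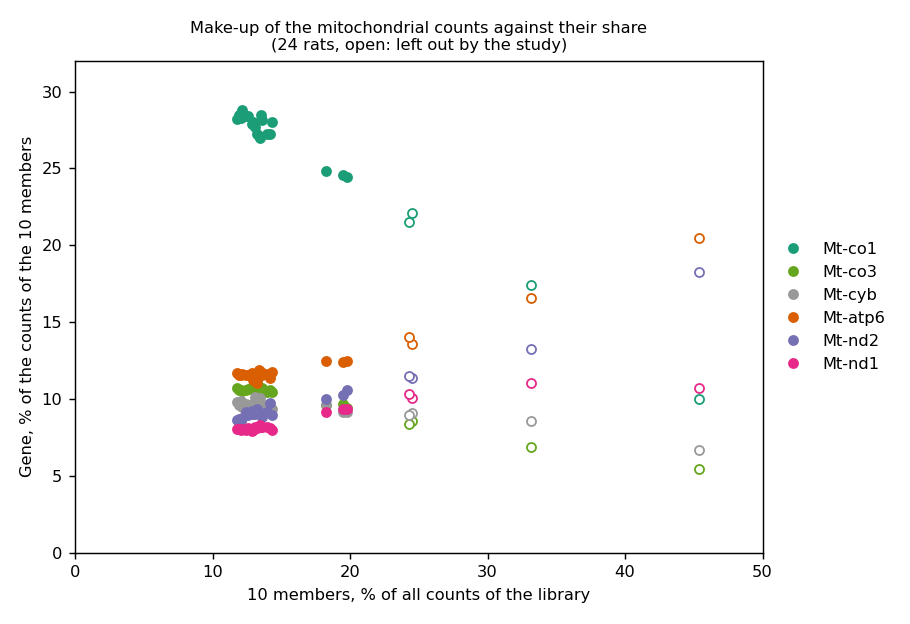
Part of the counts of the 10 members taken by 6 of them (vertical axis, percent) against the share of the library that the 10 members took (horizontal axis, percent) in 24 rats, with open symbols for left-out rats. Mt-co1 lies between 27.0% and 28.8% in the 17 retained rats on the left and at 9.98% in AS rat 18, where Mt-atp6 reaches 20.5% and Mt-nd2 18.3%.

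Between complexes, the counts of the 5 complex I members amounted to 0.897 times those of the 3 complex IV members in C rat 20, 0.930 times in RS3 rat 8, 1.21 times in RS7 rat 1 and 1.91 times in AS rat 18. Among retained rats this ratio was 0.763 in C rat 21, 0.780 in C rat 22 and 0.736 in RS7 rat 4, and the next highest value was 0.653 in AS rat 15. The number of other genes with at least 10 CPM of the counts outside the members was 10831, 10785 and 10702 in C rat 21, C rat 22 and RS7 rat 4, within the 10663 to 11022 of the 17 other retained rats. It was 9976 in AS rat 18, 10328 in RS7 rat 1, 10621 in RS3 rat 8 and 10663 in C rat 20. Total counts of the 3 retained rats were 8087697 (C rat 21), 10393286 (C rat 22) and 16538531 (RS7 rat 4), which spans nearly the whole range of depth. The part of depth and of the number of genes detected in the mitochondrial share was not tested.

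Markers of other cell types were compared in CPM of the counts outside the 10 members. The summed astrocyte markers (Aqp4, Slc1a2, Slc1a3) stood at 2649 in C rat 21, 2430 in C rat 22 and 2295 in RS7 rat 4, where the 17 other retained rats ranged from 1978 to 2343. The summed neuronal markers were 5423, 5662 and 5751 in the same rats, within the 5218 to 6212 of the others. Endothelial and basement membrane markers (147, 134 and 125, against 110 to 151), hypothalamic markers (878, 851 and 737, against 501 to 1284) and thalamic markers (321, 435 and 499, against 313 to 630) also lay within the range. In all 4 left-out rats the neuronal sum (6517 in C rat 20, 12175 in AS rat 18, 6548 in RS3 rat 8 and 8281 in RS7 rat 1) and the astrocyte sum (2433, 2647, 2371 and 2407 in that order) exceeded the ranges of the 17 rats. Their endothelial sums were 106, 62.1, 114 and 72.2, below the range of the 17 rats in 3 of 4.

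The retained groups also differed in some of these sums. All markers took their identifiers from the study's lists of genes that differed between groups of these same rats. A group difference in them was therefore partly fixed beforehand. The summed hypothalamic markers ranged from 680 to 1238 for C, from 894 to 1284 for AS, from 595 to 896 for RS3 and from 501 to 755 for RS7, so that the AS and RS7 groups did not overlap. By their medians over the retained rats, Hap1 (406 CPM) and Ndn (302) made the largest parts of this sum. The summed thalamic markers ranged from 321 to 435, 313 to 470, 323 to 530 and 475 to 630 in the same group order, and the RS7 group lay above both C and AS. Ntng1 (312) and Lef1 (99.0) made the largest parts of that sum. Single markers are not given by group here, so these sums do not speak for each gene on a list. Endothelial markers ranged from 126 to 151 for C and from 111 to 125 for RS7, again without overlap. For single genes in TMM-scaled CPM, a different measure, these groups did not overlap for 4.07% of all genes in AS versus RS7. In C versus RS7 it was 3.59%. The part of cell type and regional make-up in the mitochondrial share, in single rats or between groups, was not tested.

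For the group comparisons, CPM of the whole library, members included, were scaled with TMM factors, and the 4 groups of 5 retained rats were fitted together over 16202 genes with edgeR's quasi-likelihood test. All 10 members passed the filter on low counts, and a gene was called at a Benjamini-Hochberg adjusted p of 0.05 or less. A negative log2 fold change means a lower value after the larger number of exposures. The comparisons share groups and are not independent of each other. Nor are the members. Over the retained rats the log2 CPM of each followed the mean of the others, with Pearson's r from 0.98 (Mt-nd3) to 0.997 (Mt-nd1). The number of members under a cut is therefore not a number of separate results. Mean Mt-co1 was 43013 CPM ± 8325 (SD) for C, 34757 ± 2512 for AS, 36030 ± 3107 for RS3 and 38813 ± 5772 for RS7. Mean Mt-nd1 was 14445 CPM ± 5023, 10060.4 ± 938, 10215 ± 979 and 12264 ± 3294 in the same order. The TMM factors of C rat 21, C rat 22 and RS7 rat 4 were 0.930, 0.920 and 0.924, below those of all other retained rats.

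A single loud noise exposure was compared with none first. All 10 members had lower means in the AS group, and edgeR called 0 of 10 for C versus AS, beside 0% of all genes. The log2 fold changes ran from -0.52 (Mt-nd1, SE 0.20, 95% interval -0.93 to -0.11) to -0.30 (Mt-nd3, SE 0.15, interval -0.63 to 0.020), with a median of -0.43 beside -0.0023 over all genes. At an unadjusted p under 0.05 there were 9 of 10 members, all of them lower, against 10% of all genes in either direction and 5.44% lower, and the adjusted p-values by edgeR lay between 0.461 and 0.514. The DESeq2 Wald test called 0 members (0% of genes), with 9 at an unadjusted p under 0.05 (6.22% of genes), and limma-voom with quality weights called 0 (0%), with 9 (7.59%). Unadjusted shares for DESeq2 here and below are over 25606 genes without the filter on low counts, against 16202 for edgeR and limma-voom. Its adjusted shares are over the genes given an adjusted p, such as 11426 in C versus RS3. Its percentages are therefore not comparable with theirs. Leaving out C rat 21 or C rat 22 alone took the edgeR count at an unadjusted p under 0.05 from 9 to 2 in either case, with medians of -0.32 and -0.31. With C rats 21 and 22 as well as RS7 rat 4 set aside, edgeR called 0 members, 0 had an unadjusted p under 0.05, and the median log2 fold change was -0.083. This set was chosen after seeing that these retained rats had the highest values, so the difference was bound to shrink.

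The C versus RS3 group comparison gave nearly the same picture, with 0 of 10 members called by edgeR beside 0% of all genes. All 10 means were lower in the RS3 group, from a log2 fold change of -0.51 (Mt-nd2, SE 0.20, 95% interval -0.93 to -0.085) to -0.26 (Mt-co1, SE 0.11, interval -0.48 to -0.032), with a median of -0.43 beside -0.0022 over all genes. All 10 had an unadjusted p under 0.05, against 16.3% of all genes in either direction and 8.4% lower, and their adjusted p-values by edgeR were between 0.219 and 0.303. DESeq2 called 0 members (0.333% of genes), with 9 at an unadjusted p under 0.05 (10.1%), and limma-voom called 0 (0%), with 10 (14.9%). Without C rat 21 alone or C rat 22 alone, only 1 member had an unadjusted p under 0.05 in edgeR, with medians of -0.32 and -0.30, and without RS3 rat 10, 11 or 12 the count was 6, 6 or 7. Leaving out C rats 21 and 22 as well as RS7 rat 4, again chosen for their high values, moved the median log2 fold change to -0.069. In that fit edgeR called 0 members, and 0 had an unadjusted p under 0.05.

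After 7 exposures the group means lay between those of the C group and of the other noise groups. Single rats did not. In the summed share RS7 rats 2, 3, 5 and 6 (12.6%, 13.4%, 13.4% and 13.1%) lay within the AS range (11.8% to 14.2%) and the RS3 range (11.9% to 14.3%). Only RS7 rat 4 (18.2%) lay above them. For C versus RS7, edgeR called 0 of 10 members, beside 0.148% of all genes, and 0 had an unadjusted p under 0.05, against 17.9% of all genes. DESeq2 likewise called 0 (2.92% of genes), with 0 at an unadjusted p under 0.05 (11.1%), as did limma-voom (1.01% and 18.5%). The log2 fold changes were between -0.26 (Mt-nd4, SE 0.19, 95% interval -0.66 to 0.14) and -0.12 (Mt-cyb, SE 0.14, interval -0.40 to 0.17), with adjusted p-values by edgeR from 0.477 to 0.706. Single rats decided the size of this difference. The median log2 fold change was -0.20 with all retained rats, -0.35 without RS7 rat 4, -0.093 without C rat 21 and -0.084 without C rat 22. Without RS7 rat 4, 8 members had an unadjusted p under 0.05 and edgeR called 0. Without all 3 of these rats, a set chosen after seeing their high values, the median was 0.00033, with 5 members lower and 5 higher.

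In the AS versus RS3 group comparison the members differed least. The edgeR test called 0 of 10 members, beside 0% of all genes, with 0 at an unadjusted p under 0.05, against 4.61% of all genes, and DESeq2 (0.00391% and 2.9% of genes) and limma-voom (0% and 8.12%) gave 0 on both counts. The log2 fold changes spanned -0.041 (Mt-co2, SE 0.15, 95% interval -0.37 to 0.28) to 0.053 (Mt-nd5, SE 0.18, interval -0.32 to 0.42), with 5 members lower and 5 higher.

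In the AS versus RS7 group comparison all 10 means were higher in the RS7 group, with log2 fold changes from 0.14 (Mt-co3, SE 0.12, 95% interval -0.10 to 0.38) to 0.29 (Mt-nd1, SE 0.19, interval -0.12 to 0.70). The edgeR test called 0 of 10, beside 1.67% of all genes, and 0 had an unadjusted p under 0.05, against 16.2% of all genes. DESeq2 (3.7% and 10.3% of genes) and limma-voom (5.36% and 20.8%) gave 0 on both counts. The median log2 fold change was 0.23, and 0.065 without RS7 rat 4. These are the groups whose summed hypothalamic and thalamic markers, all listed by the study from these same rats, did not overlap. The part of those markers in this difference was not tested. The RS3 versus RS7 group comparison ran from 0.11 (Mt-co1, SE 0.11, interval -0.12 to 0.33) to 0.26 (Mt-nd1, SE 0.19, interval -0.15 to 0.67), again with 0 of 10 members called by edgeR beside 0% of all genes, and 0 at an unadjusted p under 0.05, against 7.52%. Its median moved from 0.22 to 0.069 without RS7 rat 4, and DESeq2 (0% and 5.02% of genes) and limma-voom (0% and 8.84%) also gave 0 on both counts.

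**Figure D5:**
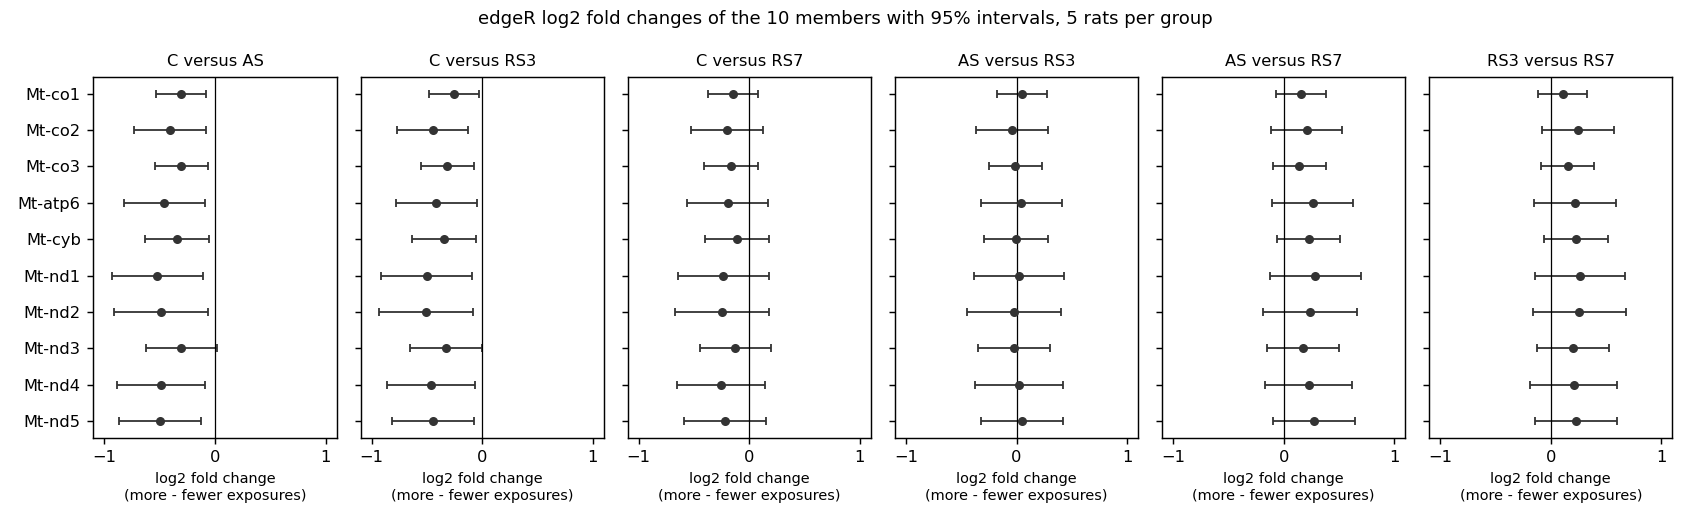
Log2 fold changes (horizontal axis, more minus fewer exposures) of the 10 genes in the 6 group comparisons, with points for the edgeR estimates and bars for 95% intervals, 5 retained rats per group. All 10 points lie below 0 in the 3 comparisons with the C group and above 0 in AS versus RS7 and RS3 versus RS7, and no member was called in any of them.

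Tested across the 4 groups at once, edgeR called 0 of 10 members, beside 0.302% of all genes, with adjusted p-values between 0.263 (Mt-co2) and 0.435 (Mt-nd3). At an unadjusted p under 0.05 there were 5 members (Mt-co1, Mt-co2, Mt-co3, Mt-nd1, Mt-nd5), against 16.4% of all genes. Leaving out single rats gave counts between 0 and 9. It was 0 without C rat 21, C rat 22, AS rat 13 or RS3 rat 10, 11 or 12, and 1 without AS rat 14 or 16. Leaving out AS rat 17 gave 2, and RS7 rat 5 gave 3. The count was 9 when C rat 19, 23 or 24 or RS7 rat 4 was set aside. DESeq2, here by its likelihood ratio test, called 0 members (3.25% of genes), with 5 at an unadjusted p under 0.05 (11%), and limma-voom called 0 (0.568%), with 4 (16.1%). Including the 4 left-out rats gave 0 called members as well but turned the direction of the median log2 fold change to 0.52 in C versus AS, 0.16 in C versus RS7 and -0.31 in AS versus RS7. In AS versus RS3 the median went from 0.0071 to -0.79. It was -0.28 in C versus RS3 and 0.46 in RS3 versus RS7. In none of the 6 comparisons did the retained groups separate in TMM-scaled CPM for any of the 10 members, where 1.17% (C versus AS), 2.28% (C versus RS3), 3.59% (C versus RS7), 0.889% (AS versus RS3), 4.07% (AS versus RS7) and 1.54% (RS3 versus RS7) of all genes did.

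Of 85 nuclear-encoded respiratory chain and mitochondrial DNA maintenance genes on a list, only 2 could be tied to an identifier, so the list was not summarised. Both are small subunits of complex IV, and the study had picked both from these same samples. Cox7a2 had 60.2 CPM ± 8.67 for C, 70.1 ± 5.86 for AS, 75.0 ± 3.32 for RS3 and 71.7 ± 6.23 for RS7, with its lowest C values in rats 21 (52.5) and 22 (50.2) and its lowest RS7 value in rat 4 (61.8). AS rat 17, whose mitochondrial share was 13.2%, had a lower value (60.4) than RS7 rat 4. Cox7b had 17.9 CPM ± 1.12, 17.9 ± 2.99, 19.7 ± 2.00 and 22.7 ± 2.79 in the same order, with 16.1 in C rat 21, the lowest C value, 18.9 in C rat 22, the highest C value, and 27.1 in RS7 rat 4, the highest of all retained rats. Neither gene was called by edgeR in any comparison, with the smallest adjusted p-values at 0.13 for Cox7a2 (C versus RS7, log2 fold change 0.24 ± 0.080 SE) and 0.072 for Cox7b (AS versus RS7, 0.34 ± 0.099 SE).

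Within the 17 retained rats other than C rats 21 and 22 and RS7 rat 4, the log2 CPM of each member followed the mean of the other 9, with Pearson's r from 0.91 (Mt-cyb) to 0.99 (Mt-nd1). The points of such a correlation share libraries, depth and scaling, and it is given as a description. Among the 16192 other genes tested, those most like the mean of the members over the 20 retained rats were ENSRNOG00000031053 and ENSRNOG00000029042, which within the 17 rats had r = 0.97 (rho = 0.97) and r = 0.97 (rho = 0.97). In C rat 21 they had 3711 and 4069 CPM, against 1413 and 1936 in the lowest retained rat. Most unlike the members were ENSRNOG00000002642 and ENSRNOG00000016474, with r = -0.80 (rho = -0.76) and r = -0.77 (rho = -0.78) within the 17 rats. All 4 were picked as extremes over rats that include these 17. The sources used here do not pair these identifiers with gene names, so whether any is a further gene of the mitochondrial genome could not be checked.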

How the data were processed

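The authors deposited 1 table of unnormalized read counts per Ensembl gene for 24 rats. Per the labels and the study's methods, paired-end reads of polyA libraries were trimmed (Trimmomatic 0.36), mapped to rn6 (HISAT2 2.0.5) and counted with featureCounts. How strand and multi-mapping reads were handled is not given in the sources used here, so reads shared between the members and nuclear copies of mitochondrial DNA could have been lost or split. Column names stand 2 cells to the right of their values in the header, and columns were read by position in the file. The study does not number the 4 rats it left out. Of 1296 sets leaving out 1 rat per group, the set used here gave the mean expression listed in its supplement for 779 of 779 genes (tolerance 1e-06), and the next best for 1. Chromosome positions, lengths and sequences of the members were not used here, so ranks, shares and ratios between genes are of counts not corrected for length, and do not compare levels of molecules.

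Shares were computed from the counts. The groups were compared by edgeR 4.0.16 under R 4.3.3 (TMM, filterByExpr with a minimum count of 10, robust quasi-likelihood F-test, 4 groups in 1 fit without covariates, Benjamini-Hochberg adjustment within a comparison). The study used DESeq2, which was run as an alternative (version 1.42.0, Wald test for pairs of groups and likelihood ratio test across the 4 groups). Other alternatives were limma-voom (limma 3.58.1, quality weights), other scalings, no filter, all 24 rats, only the groups compared, and each rat left out. P-values measure the spread between rats, 1 library each. With the 4 groups in 1 fit, this spread is estimated per gene over all of them together. A comparison therefore also carries the spread of groups outside it. Libraries within a group differed by more than sampling noise (lowest chi-square per degree of freedom 1.99). Genes named are the 10 members, listed nuclear genes and markers with an identifier, and the genes with the highest and lowest correlation with the mean of the members, of which 4 are printed. The members, lists and rules were chosen with earlier results of these data known.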

Additional observations from a re-analysis of the deposited data

Results flagged for a closer look

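A test for a sample far from the others (Dixon's ratio at its 95% critical value) was run on the share of the library of the 10 members together and of each member, in each group, with 24 and with 20 rats, 88 groups in all. Chance flags about 1 in 20 groups, and the members of 1 library are not independent of each other.

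With 24 rats, AS rat 18 stood apart in 10 of these measures, with 45.3% for the 10 members, 4.36% for Mt-co2, 2.46% for Mt-co3, 9.28% for Mt-atp6, 3.03% for Mt-cyb, 4.86% for Mt-nd1, 8.29% for Mt-nd2, 0.485% for Mt-nd3, 3.81% for Mt-nd4 and 4.23% for Mt-nd5. Mt-co1 did not stand apart in this rat. RS3 rat 8 stood apart in all 11, with 24.3% for the 10 members, 5.22% for Mt-co1, 2.44% for Mt-co2, 2.03% for Mt-co3, 3.40% for Mt-atp6, 2.18% for Mt-cyb, 2.51% for Mt-nd1, 2.79% for Mt-nd2, 0.243% for Mt-nd3, 1.62% for Mt-nd4 and 1.85% for Mt-nd5. RS7 rat 1 stood apart in 9, with 33.1% for the 10 members, 3.21% for Mt-co2, 5.49% for Mt-atp6, 2.84% for Mt-cyb, 3.67% for Mt-nd1, 4.38% for Mt-nd2, 0.380% for Mt-nd3, 2.36% for Mt-nd4 and 2.77% for Mt-nd5. All 3 are among the rats the study left out.

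With the 20 retained rats, RS7 rat 4 stood apart in 10 measures, with 18.2% for the 10 members, 4.53% for Mt-co1, 1.90% for Mt-co2, 1.76% for Mt-co3, 2.28% for Mt-atp6, 1.67% for Mt-nd1, 1.83% for Mt-nd2, 0.189% for Mt-nd3, 1.07% for Mt-nd4 and 1.27% for Mt-nd5. C rats 21 and 22 lie close to each other, and a test for 1 distant sample does not mark such a pair.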

How the results depend on the processing

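The number of members called was 0 in each of the 6 comparisons and across the 4 groups under every alternative run, leaving out each rat in turn included, and the lowest adjusted p of any member by any of them was 0.087 (C versus RS3, edgeR without C rat 23). With all 24 rats in edgeR, the log2 fold change in C versus AS turned to 0.38 for Mt-co2, 0.083 for Mt-co3, 0.86 for Mt-atp6, 0.20 for Mt-cyb, 0.50 for Mt-nd1, 0.93 for Mt-nd2, 0.54 for Mt-nd3, 0.67 for Mt-nd4 and 0.63 for Mt-nd5. In C versus RS7 it turned to 0.079 for Mt-co2, 0.26 for Mt-atp6, 0.12 for Mt-cyb, 0.17 for Mt-nd1, 0.21 for Mt-nd2, 0.24 for Mt-nd3, 0.14 for Mt-nd4 and 0.18 for Mt-nd5. In AS versus RS7 it turned to -0.30 for Mt-co2, -0.095 for Mt-co3, -0.60 for Mt-atp6, -0.0857 for Mt-cyb, -0.33 for Mt-nd1, -0.73 for Mt-nd2, -0.29 for Mt-nd3, -0.53 for Mt-nd4 and -0.45 for Mt-nd5. The median over the members was then 0.52 in C versus AS, 0.16 in C versus RS7, -0.31 in AS versus RS7, -0.79 in AS versus RS3, -0.28 in C versus RS3 and 0.46 in RS3 versus RS7. The cause was not tested. Setting aside C rats 21 and 22 as well as RS7 rat 4, an alternative chosen after seeing the data, turned C versus RS7 to 0.011 for Mt-atp6, 0.040 for Mt-cyb, 0.00753 for Mt-nd1, 0.015 for Mt-nd3 and 0.0020 for Mt-nd5. With each retained rat left out in turn, the median log2 fold change ranged from -0.52 to -0.31 in C versus AS, -0.52 to -0.30 in C versus RS3, -0.35 to -0.084 in C versus RS7, -0.041 to 0.066 in AS versus RS3, 0.065 to 0.28 in AS versus RS7 and 0.069 to 0.28 in RS3 versus RS7. Library totals without a scaling factor gave -0.35 in C versus AS and -0.36 in C versus RS3, and under this and each other scaling the members kept 10 of 10 lower values in both. No paired analysis was possible because the groups share no rat numbers. Counts were 13471 or more for every member in every rat, for which counting error is at most 0.862%, and other effects of depth were not tested.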

Other observations

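The make-up of the mitochondrial counts, as the part each member took of the counts of all 10, was also set side by side between the retained groups. In 58 of the 60 pairs of a member and a comparison the groups overlapped. The exceptions were chosen after their values were seen. Mt-co2 made up 10.2% ± 0.0951 (SD, n = 5 rats) of the mitochondrial counts in the AS group, with a range of 10.04% to 10.3%, and 9.77% ± 0.234 in the RS3 group, with a range of 9.40% to 9.97%. Mt-nd1 made up 8.03% ± 0.0866 in the AS group, between 7.91% and 8.12%, and 8.40% ± 0.429 in the RS7 group, between 8.13% and 9.16%, where the highest value is that of RS7 rat 4. Neither difference was tested. In TMM-scaled CPM, a different measure, the groups did not overlap for 0.889% of all genes in AS versus RS3 and 4.07% in AS versus RS7.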
